A study of Mus musculus with 1 sample.

Results

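The genes described here are 39 genes of the pancreatic acinar cell, the exocrine cell that makes the digestive enzymes. They were chosen by name, as digestive enzymes, other granule and secretory products, and transcription factors that set acinar identity. All 39 had a row in the deposited table, among 23386 genes in all. The table comes from RNA sequencing of 1 mouse culture of pancreas fibroblasts, expanded in vitro and labelled normal fibroblast. The labels give normal pancreas as the tissue, a mixed C57BL/6 and BALB/c background, and a genotype that includes tf1acre-, that is Cre-negative, and Tgfrb2flox/flox, floxed alleles of a gene written Tgfrb2. They give neither the age nor the number of animals, and they do not spell out the driver of the Cre further. The series set such cultures against fibroblasts from pancreas tumours, but no library labelled that way was analysed here, and the name of the table's value column carries a CAF code that disagrees with the label.

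The acinar cell stores its enzymes, mostly as inactive zymogens, in granules that it empties into the duct when a meal stimulates it. PTF1, a complex built on Ptf1a and Rbpjl, binds enzyme gene promoters at an E box paired with a TC box and switches on the enzyme genes. Bhlha15, also called Mist1, equips the cell for secretion. Fibroblasts are not known for making these enzymes.

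The library held 52494688 reads and has no replicate, so every interval below is an exact 95% interval for counting error only, and no difference was tested. The fibroblast markers Vim, Thy1 and Fn1 stood at 3056, 1362 and 4591 TPM (reads per kilobase of exonic length, scaled so that all protein-coding genes sum to 1000000). All 12 fibroblast markers were detected, taken here as 10 reads or more, against 67.6% of all protein-coding genes. Their median was 925 TPM, and Lum was the lowest at 11.0 TPM.

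Of the 39 acinar genes, 36 had at least 10 reads, against 67.6% of all protein-coding genes. The exceptions were Prss1, Prss3 and Ptf1a. By length-divided level 19 of the 39 lay at or above 25.0 TPM, the median of detected protein-coding genes, which 33.9% of all protein-coding genes reached. In CPM (reads per 1000000 reads in the table, not divided by length) 12 of the 39 reached the corresponding median of 21.4 CPM, against 33.8% of protein-coding genes, so the share above the middle depends on the scale. The median of the 39 was 22.2 TPM, beside 6.01 TPM over all protein-coding genes. Together they took 38202 reads, or 0.0728% of the table (exact Clopper-Pearson interval 0.0721% to 0.0735%). In bulk RNA, a few acinar cells with much RNA and many cells with little cannot be told apart.

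**Figure D1:**
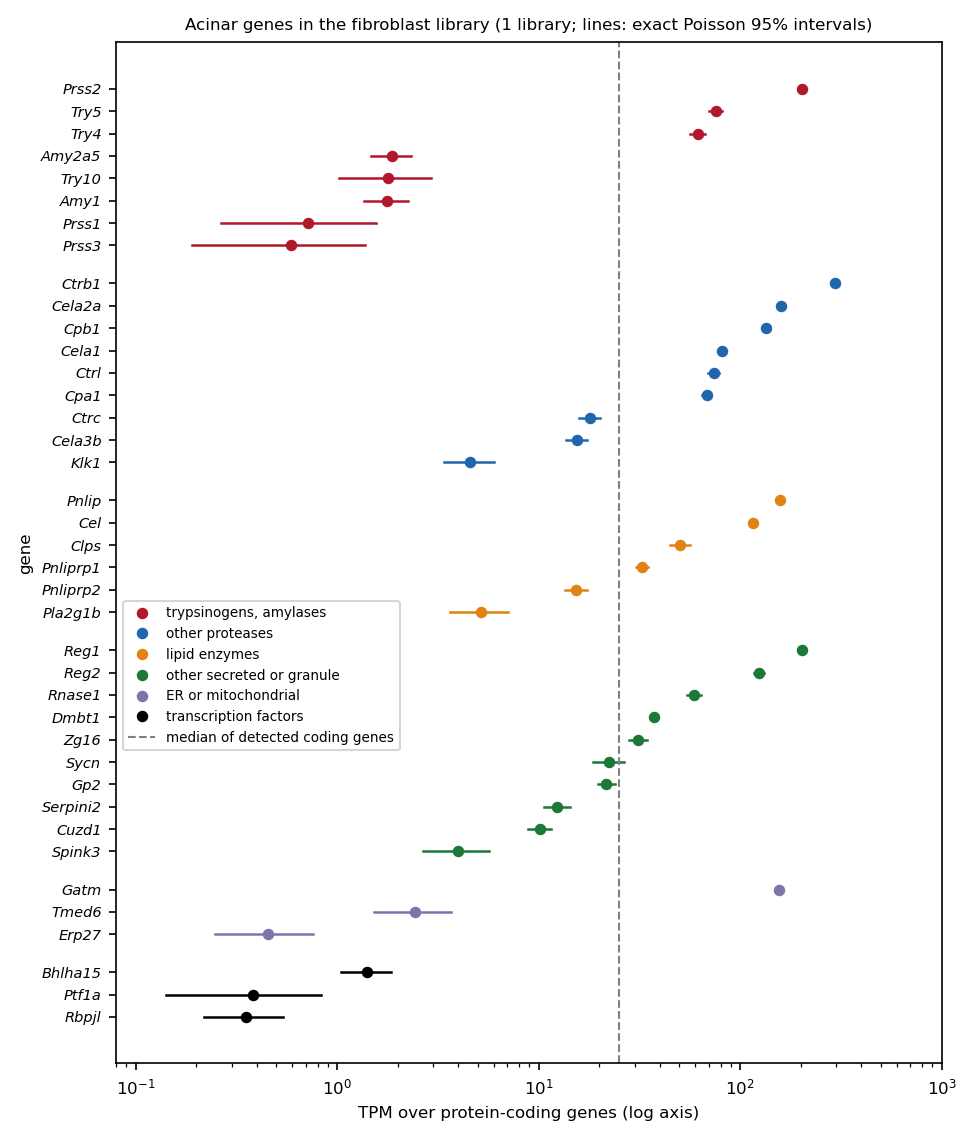
Level of each of the 39 acinar genes in TPM on a log axis, grouped by role, with exact Poisson 95% intervals as lines (shorter than the point for abundant genes) and the median of detected protein-coding genes, 25.0 TPM, as the dashed line. The enzymes and granule products spread from under 1 TPM to 296 TPM, while the 3 transcription factors all lie at or below 1.41 TPM.

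Secreted products and transcription factors of the same cell stood far apart. The 33 secreted or granule products had a median of 32.6 TPM, whereas the 3 transcription factors had a median of 0.384 TPM. Of the 33, 31 had at least 10 reads, against 67.6% of all protein-coding genes. By TPM 18 of the 33 and none of the 3 reached the median of detected genes, against 33.9% of all protein-coding genes. The difference between the group medians was 3.33 on the log2(CPM + 0.5) scale and 5.23 on the log2(TPM + 0.5) scale. Bhlha15 (GRCm38 chromosome 5, 144190286 to 144194441) had 51 reads, or 1.41 TPM (1.05 to 1.85). Rbpjl, the acinar form of the Notch effector Rbpj, had 21 reads, or 0.354 TPM (0.219 to 0.541). Ptf1a (chromosome 2, 19445663 to 19447501) had 6 reads, or 0.384 TPM (0.141 to 0.836). The intervals of Ptf1a and Rbpjl overlap, and Bhlha15 lay above both on this scale. The order rests on the length used for Rbpjl, whose exonic union is 5732 bases and whose transcript is 2456 bases. By transcript length Bhlha15 exceeded Rbpjl 1.71-fold instead of 3.98-fold, and Rbpjl exceeded Ptf1a 2.15-fold instead of 0.921-fold. Ctrb1, the most abundant enzyme message, exceeded Bhlha15 210-fold per unit length (160 to 283). In the annotation 40.4% of the exonic length of Ptf1a overlaps an antisense transcript, Ptf1aos, and no source used here states the strand setting of the counting, so even these 6 reads may not all be from Ptf1a.

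Other transcription factors of the pancreas differed widely in level. Of the 17 on the list, 12 were detected, against 67.6% of all protein-coding genes. Above 25.0 TPM lay 5 of the 17, against 33.9% of all protein-coding genes, so the list as a whole lay near these shares. Those 5 were Xbp1 at 178 TPM, a factor of the secretory apparatus, Tcf3 at 109 TPM and Tcf12 at 44.3 TPM, the E proteins that pair with Ptf1a, Gata6 at 82.8 TPM, and Rbpj at 31.0 TPM. The partners of the PTF1 complex that many cell types share were therefore present beside 6 reads of Ptf1a itself. Foxa2, with 20.3 TPM, was the next below that line. Nr5a2, a nuclear receptor of acinar cells, had 16 reads, and Pdx1 had 1 read.

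**Figure D2:**
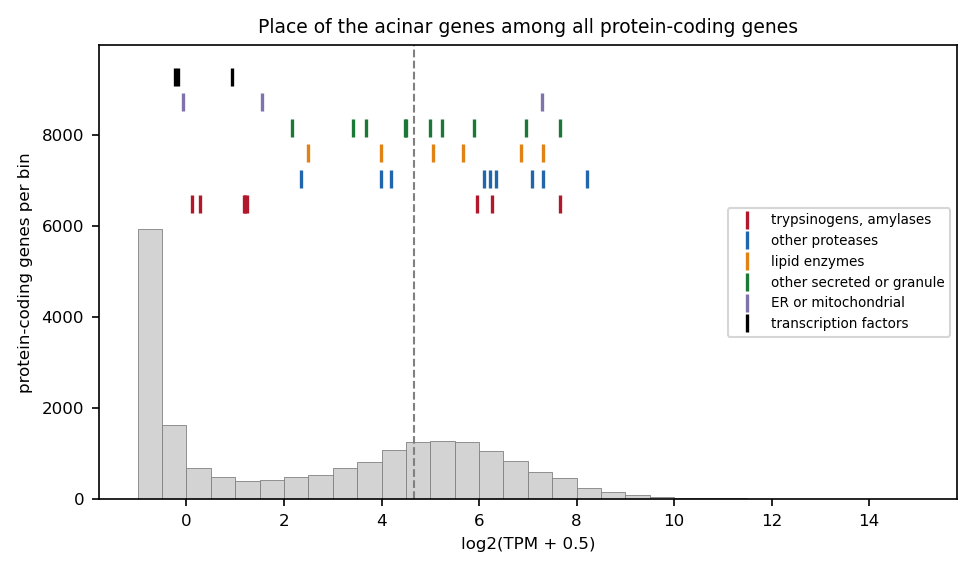
Histogram of log2(TPM + 0.5) over protein-coding genes, with ticks above it for the acinar genes by role and the median of detected genes as the dashed line. Secreted products are spread over the body of expressed genes, and the transcription factors lie in the low range beside genes with few reads.

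Among the proteases outside the trypsinogen cluster, all 9 were detected (10 reads or more), against 67.6% of all protein-coding genes. Their median was 73.9 TPM. Chymotrypsinogen led. Ctrb1 (chromosome 8, 111686510 to 111691010) had 2695 reads, or 296 TPM (285 to 308), higher than 97.4% of protein-coding genes. Its relative Ctrl had 73.9 TPM, 4.01-fold lower (3.72 to 4.33). Ctrc, whose product trims and degrades trypsinogen, had 17.9 TPM, 16.5-fold below Ctrb1 (14.6 to 18.8). By transcript length Ctrl stood 3.05-fold and Ctrc 11.0-fold below Ctrb1, both outside the counting intervals. The RefSeq table for the C57BL/6J reference lists Ctrc, with 265 reads, as a transcribed pseudogene. In GENCODE it shares 305 exonic bases with Cela2a on the same strand. All 35-base stretches of the Ctrc transcript matched to the table are unique, so the overlap limits the reads of Cela2a rather than those of Ctrc.

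The pancreatic elastases showed the same kind of spread. Cela2a (chromosome 4, 141814954 to 141826005) had 159 TPM (153 to 165) from 2835 reads, Cela1 had 81.0 TPM (77.4 to 84.6), and Cela3b had 15.4 TPM. Cela2a stood 1.96-fold above Cela1 (1.85 to 2.08) and 10.3-fold above Cela3b (9.08 to 11.7). By transcript length these folds were 1.52 and 9.22, the first of them outside its counting interval. Of the 35-base stretches of Cela2a, 26.6% also occur in Ctrc, so its level may include reads of Ctrc. Of the 35-base stretches of Cela3b, 42.7% also occur in Cela3a, which had 7 reads under its older name Gm13011, so a sharing of reads between those 2 genes cannot be told from a true difference.

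The carboxypeptidases take single residues from the ends of peptides, Cpa1 preferring aromatic and aliphatic ones and Cpb1 basic ones. Cpb1 (chromosome 3, 20249479 to 20275733) had 4578 reads, the most of any secreted product, over an exonic length of 3284 bases, which gave 135 TPM (131 to 139). Cpa1 had 68.2 TPM (64.4 to 72.1), 1.98-fold lower (1.86 to 2.11), or 2.16-fold lower by transcript length. Klk1, the tissue kallikrein, had 51 reads, or 4.57 TPM. Of the 20 other kallikrein genes listed, only Klk8 and Klk10 had at least 10 reads, against 67.6% of all protein-coding genes. The adjacent copy Klk1b5 had 3 reads.

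Lipid digestion was represented from lipase to cofactor. All 6 members were detected, against 67.6% of all protein-coding genes. By TPM 4 of them lay above 25.0, and by CPM 2 reached the corresponding median, against 33.9% and 33.8% of protein-coding genes. Pnlip, the pancreatic triglyceride lipase (chromosome 19, 58670365 to 58681799), had 3594 reads, or 158 TPM (153 to 163). Cel, the bile salt-stimulated lipase (chromosome 2, 28555819 to 28563403), had 116 TPM (112 to 121). Clps, the colipase that anchors Pnlip to fat droplets, had 319 reads, or 50.4 TPM (45.0 to 56.3), 3.14-fold below its enzyme (2.80 to 3.53). By transcript length Clps stood 4.63-fold below Pnlip, outside that counting interval. The lipase-related genes Pnliprp1 and Pnliprp2 followed at 32.6 and 15.3 TPM. Pla2g1b, the secreted phospholipase, was the lowest at 38 reads, or 5.15 TPM (3.64 to 7.06), 22.6-fold below Cel (16.4 to 32.0).

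Granule and other secreted products spanned a similar range. The lectins of the regenerating family led: Reg1 (chromosome 6, 78425983 to 78428668) had 203 TPM (194 to 212) and its neighbour Reg2 had 124 TPM (118 to 132), a 1.63-fold difference (1.52 to 1.75). By transcript length that difference was 1.4-fold. Rnase1, the pancreatic ribonuclease, had 59.2 TPM (54.6 to 64.1), Dmbt1, a mucosal scavenger glycoprotein, 37.5 TPM, and the granule lectin Zg16 31.2 TPM. By transcript length this order changed, with Zg16 at 43.2 TPM, Rnase1 at 41.4 TPM and Dmbt1 at 29.7 TPM. Those 3 values are scaled to their own sum over protein-coding genes. Rnase1, with 992 bases by both measures, moved through that scaling alone, so they are not to be set beside 25.0 TPM. Below the median of detected genes came syncollin (Sycn) at 22.2 TPM, the granule membrane protein Gp2 at 21.7 TPM, the serpin Serpini2 at 12.3 TPM and Cuzd1 at 10.1 TPM. The interval of Sycn, 18.6 to 26.4 TPM, includes the median. Spink3, the inhibitor that guards the granule against early trypsin, had 30 reads, or 3.97 TPM (2.68 to 5.67), 51.1-fold below Prss2 per unit length (35.7 to 76.0).

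Beside the transcription factors, 3 members are not secreted products. Gatm, which makes the creatine precursor guanidinoacetate in mitochondria and is expressed in kidney as well as pancreas, had 4857 reads, the most of all 39 genes, and 156 TPM (152 to 161). Gamt, the next enzyme of creatine synthesis, had 41.5 TPM, the creatine transporter Slc6a8 100 TPM and the creatine kinase Ckb 58.9 TPM. In contrast Tmed6, a cargo receptor of the early secretory pathway, had 22 reads, or 2.44 TPM (1.53 to 3.69). Erp27, an endoplasmic reticulum protein, had 14 reads, or 0.454 TPM (0.248 to 0.761). The general secretory pathway was well represented, with 17 of 18 listed genes above 25.0 TPM, against 33.9% of all protein-coding genes.

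The trypsinogens and amylases belong to clusters of near-identical genes, which limits what short reads can say of each. The mouse trypsinogens lie within the T cell receptor beta locus on chromosome 6. Below, the first 90 coding bases of 6 trypsinogens are shown from the GENCODE transcripts (GRCm38), 5′ to 3′. They code for the secretion signal, the activation peptide and the start of the mature enzyme, and capitals mark bases that differ from Prss2. They are shown because they make visible how little separates the copies.
Prss2: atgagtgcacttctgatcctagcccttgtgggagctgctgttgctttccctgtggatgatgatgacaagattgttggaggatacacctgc
Try5: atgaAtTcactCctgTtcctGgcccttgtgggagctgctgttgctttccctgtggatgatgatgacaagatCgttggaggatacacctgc
Try4: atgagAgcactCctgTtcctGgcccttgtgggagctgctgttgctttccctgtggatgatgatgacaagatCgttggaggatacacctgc
Try10: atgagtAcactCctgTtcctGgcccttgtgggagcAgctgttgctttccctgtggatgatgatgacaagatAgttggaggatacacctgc
Prss1: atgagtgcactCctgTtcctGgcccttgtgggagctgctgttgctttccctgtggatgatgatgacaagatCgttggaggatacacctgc
Prss3: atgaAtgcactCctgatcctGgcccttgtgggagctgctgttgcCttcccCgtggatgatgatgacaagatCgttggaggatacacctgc
The copies differ from Prss2 at 4 to 6 of these 90 bases, and the activation peptide stretch is nearly free of differences. Over the full coding sequence Try4 and Try5 differ at 19 of 738 bases (97.4% identity) and share an unbroken run of 274 bases, while Prss2 differs from Try4 at 61 bases (91.7%).

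Reads over the trypsinogens were uneven. Prss2 (chromosome 6, 41521776 to 41525079) had 1714 reads, or 203 TPM (194 to 213), Try5 had 709 reads (75.9 TPM, 70.4 to 81.7) and Try4 511 reads (61.6 TPM, 56.4 to 67.2). Try10 had 16 reads, Prss1 6 reads (0.720 TPM, 0.264 to 1.57) and Prss3 5 reads (0.587 TPM, 0.191 to 1.37). Prss2 exceeded Try5 2.68-fold (2.45 to 2.92), or 2.38-fold by transcript length. Of the 35-base stretches of Prss2, 82.0% occur in the transcripts of no other gene, so its level rests mostly on its own sequence. That share was 36.4% for Try5 and 20.6% for Try4, which share 54.6% of their stretches with each other, and 26.9% for Prss3. No source used here states the read length or the handling of reads with several matches. For stretches of 50 bases the unique shares were 92.2%, 46.1%, 34.4% and 33.9% in the same order. The more distant trypsinogen-like gene 2210010C04Rik, all of whose 35-base stretches are unique, had 2627 reads, or 118 TPM (114 to 123).

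**Figure D3:**
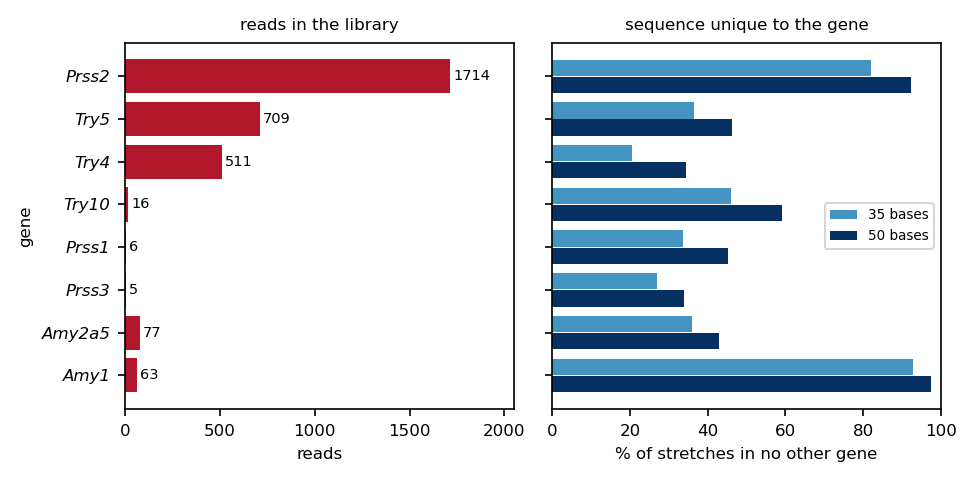
Left, reads of each trypsinogen and amylase gene in the library; right, the percentage of its transcript's stretches of 35 and 50 bases that occur in no other GENCODE gene. Prss2 has both the most reads (1714) and the most unique sequence of the 6 trypsinogens drawn, while Prss1 and Prss3 have 6 and 5 reads.

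The amylases, which digest starch, had few reads under each gene name, and what that says of their messages is limited by identical copies. Amy2a5 and its copies Amy2a2, Amy2a3 and Amy2a4 are identical over all 1524 coding bases. Amy1, the salivary and liver form, differs at 163 aligned positions, 11 of which fall in the first 90 coding bases, shown here from GENCODE (GRCm38) with capitals where Amy1 differs from Amy2a5.
Amy2a5: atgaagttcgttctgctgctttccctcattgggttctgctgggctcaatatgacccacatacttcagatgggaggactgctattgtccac
Amy1: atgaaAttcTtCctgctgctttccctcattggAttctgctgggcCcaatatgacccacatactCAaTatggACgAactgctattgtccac
In the table Amy2a5 has 4 rows, of 72, 5, 0 and 0 reads, and 1 row of each of the other 3 copies also holds exactly 72 reads. The same count thus stands under 4 names, and the 77 reads summed for Amy2a5, or 1.87 TPM (1.48 to 2.34), cannot be given to 1 gene. No source used here states whether reads matching several copies were dropped, so the level of the amylase messages together is not known from these rows. Amy2b, with 44.3% unique stretches of 35 bases, had 187 reads, or 11.5 TPM. Amy1 had 63 reads, or 1.77 TPM (1.36 to 2.26). Its annotation shares 1128 exonic bases, or 32.7% of its length, with Rnpc3 on the same strand, a spliceosome gene at 14.4 CPM.

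As a group, the 8 trypsinogens and amylases had a median of 1.83 TPM, against 37.5 TPM for the 25 other secreted products. Of the 8, 6 were detected, and all of the 25, against 67.6% of all protein-coding genes. The 6 trypsinogens alone had a median of 31.7 TPM and the 2 amylases one of 1.82 TPM, so the pooled median stands for neither family. The trypsinogen median itself falls in a gap between Try4 at 61.6 TPM and Try10 at 1.80 TPM, and no trypsinogen lay near it. The difference of pooled medians was -2.72 on the log2(CPM + 0.5) scale, and -1.43 over detected genes alone. The 25 carried 30130 of the 38202 reads, but Klk1 and Cela3b among them have close copies too, with 57.3% unique 35-base stretches each. For Cela2a, which overlaps Ctrc, that share was 73.4%. Of the 26 members with over 99% unique 35-base stretches, 25 were detected, against that same share of 67.6%. Their median was 35.1 TPM, beside 22.2 TPM for all 39. The members left out include low ones such as Prss1 and Prss3 and high ones such as Prss2. The 2 medians therefore cannot show whether shared sequence changes the levels.

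Acinar genes outside the 39 behaved unevenly too. Of 28 further acinar products listed, 24 had a row and 13 of these had at least 10 reads, against 67.6% of all protein-coding genes. Among the 13 were Amy2a2, Amy2a3 and Amy2a4 with the same 72 reads each. Above the median of detected genes by TPM were 2210010C04Rik, the trefoil factor Tff2 at 57.2 TPM and Reg3b, a lectin known to rise in inflamed pancreas, at 46.8 TPM. The water channels Aqp8 and Aqp12 had 2 and 7 reads, and Pdia2, the disulfide isomerase of acinar cells, 88 reads. Among receptors of acinar stimulation and their relatives, Chrm1 had 127 reads, Cckar 35, Chrm3 13, Cckbr 4 and Sctr 1, none above 1.89 TPM. Of the vesicle fusion and docking genes, Vamp8 had 66.1 TPM, Snap23 56.2 TPM, Stx3 55.2 TPM, Rab3d 43.9 TPM and Vamp2 36.8 TPM, whereas Rab27b had 6.32 TPM and Syt7 0.374 TPM. The calcium release channel Itpr3 had 64.7 TPM.

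Markers of other pancreas cell types give the levels beside which the acinar genes stand. Their lists are short, and 67.6% of all protein-coding genes were detected, so full detection of a list says little. Summed reads of the 39 acinar genes came to 3.06% of those of the 12 fibroblast markers (3.03% to 3.09%), and to 14.2% after division by length, a ratio of messages and not of cells. Mesothelial markers, 7 of 7 detected, had a median of 150 TPM, from Krt8 at 5.28 TPM and Krt18 at 41.7 TPM to Upk1b at 343 TPM. Duct markers, 9 of 9, had a median of 5.77 TPM, from 0.604 TPM to Krt19 at 30.3 TPM and Spp1 at 88.2 TPM. Macrophage markers, 6 of 6, had a median of 11.3 TPM, from Ptprc at 0.137 TPM to Cd14 at 20.7 TPM and Lyz2 at 35.4 TPM. Endothelial markers were all detected but low, with a median of 0.324 CPM, apart from Kdr, which took 99.1% of their reads. Of the 9 endocrine markers, 2 were detected, against 67.6% of all protein-coding genes, and the list took 51 reads in all. Sst had 0 reads, a count that allows up to 3 reads or 0.0571 CPM. No mast cell marker had 10 reads, and the mast cell carboxypeptidase gene Cpa3 had 4. The part of any other cell type in the acinar levels was not tested.

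**Figure D4:**
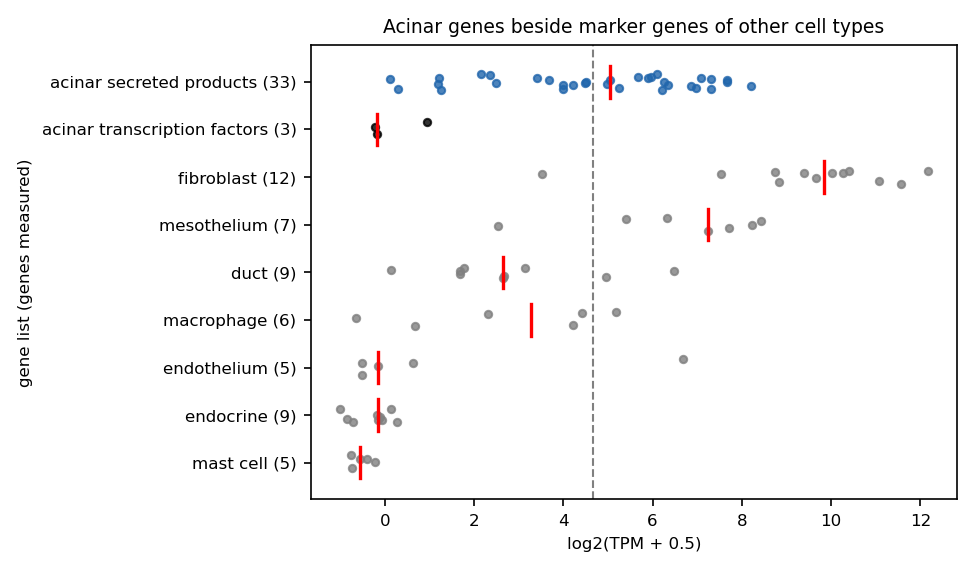
Level in log2(TPM + 0.5) of each secreted acinar product and acinar transcription factor beside marker genes of other cell types, 1 point per gene, with the list median as a red line and the median of detected protein-coding genes as the dashed line. The acinar secreted products have a median of 32.6 TPM, between the mesothelial (150 TPM) and macrophage (11.3 TPM) lists, while the endocrine and mast cell genes lie near 0 TPM.

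The upstream sequence of the genes was read from RefSeq promoters (GRCm38.p6), which held 31 of the 39 members, 26 of them secreted products. In the 250 bases before the start, the TC box TTTCCCA, on either strand, occurred in 6 of the 26 (23.1%), against 6.82% of all 32851 promoters. The E boxes CACCTG and CAGCTG occurred in 53.8% and 23.1% of the 26, against 17.2% and 13.0%, and the TATA box TATAAA in 42.3% against 12.4%, in each case on either strand. The sets are unlike: the 32851 were not held to a single promoter per gene, as the members were, or to protein-coding genes. The related trypsinogens Prss1, Prss2, Prss3 and Try4 are among the 26. A TC box together with either E box was found upstream of Ctrb1, Prss2, Cela2a and Cel, or 15.4% of the 26 against 1.88% of all promoters. The 2 boxes were counted at any spacing within the 250 bases, so the count does not select paired sites. These 4 windows are shown because they hold letters of both boxes, at spacings that differ, in lower case, 5′ to 3′ on the gene's strand, with capitals for matches to any of the 4 motifs.
Ctrb1 (chr8:111691011-111691260, minus strand): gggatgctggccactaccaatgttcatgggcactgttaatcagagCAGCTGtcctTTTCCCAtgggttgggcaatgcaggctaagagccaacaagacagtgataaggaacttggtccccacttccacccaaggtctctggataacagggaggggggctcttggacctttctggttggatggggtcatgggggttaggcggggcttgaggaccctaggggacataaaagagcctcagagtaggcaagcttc
Prss2 (chr6:41521526-41521775, plus strand): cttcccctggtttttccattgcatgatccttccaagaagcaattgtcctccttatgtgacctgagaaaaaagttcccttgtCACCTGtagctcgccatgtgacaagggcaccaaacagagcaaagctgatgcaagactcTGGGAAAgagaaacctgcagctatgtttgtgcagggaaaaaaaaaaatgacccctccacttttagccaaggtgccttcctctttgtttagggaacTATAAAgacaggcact
Cela2a (chr4:141826006-141826255, minus strand): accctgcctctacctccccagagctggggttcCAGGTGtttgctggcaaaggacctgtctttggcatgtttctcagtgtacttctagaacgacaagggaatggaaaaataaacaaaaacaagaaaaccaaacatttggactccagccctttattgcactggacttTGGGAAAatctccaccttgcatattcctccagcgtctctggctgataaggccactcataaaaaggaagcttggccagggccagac
Cel (chr2:28563404-28563653, minus strand): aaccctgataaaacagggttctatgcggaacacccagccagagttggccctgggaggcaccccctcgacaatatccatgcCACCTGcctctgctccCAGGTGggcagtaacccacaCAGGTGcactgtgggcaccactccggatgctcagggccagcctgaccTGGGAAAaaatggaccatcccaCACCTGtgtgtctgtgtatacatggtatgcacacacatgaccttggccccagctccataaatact
In Ctrb1 the E box begins 205 bases before the start and the TC box 195 bases before it. In Prss2 the E box begins 169 and the TC box 111 bases before the start, and in Cela2a 218 and 85 bases before it. In Cel the TC box begins 87 bases before the start and the E boxes 170, 154, 134 and 65 bases before it. A match describes letters and not a bound site.

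The 6 secreted genes with a TC box match, which were Ctrb1, Prss2, Reg1, Cela2a, Cel and Cpa1, all lay above the median of detected genes, from 68.2 to 296 TPM with a median of 181 TPM. The 20 without one ranged from 0.587 to 158 TPM with a median of 18.6 TPM. Of these 20, 8 lay above the median of detected genes, which 33.9% of all protein-coding genes reached. The ranges overlap, since Pnlip and Cpb1 without a match exceeded Cpa1 with one. None of the 3 transcription factor genes had the TC box in this window. The other motifs split the 26 genes less: the medians were 67.8 TPM with CACCTG and 27.4 TPM without, 42.0 with CAGCTG and 45.9 without, and 61.6 with TATAAA and 32.6 without, all with overlapping ranges. The grouping by motif was examined with the levels known and has no test, and the TC box is drawn because it split the levels most among the single motifs.

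**Figure D5:**
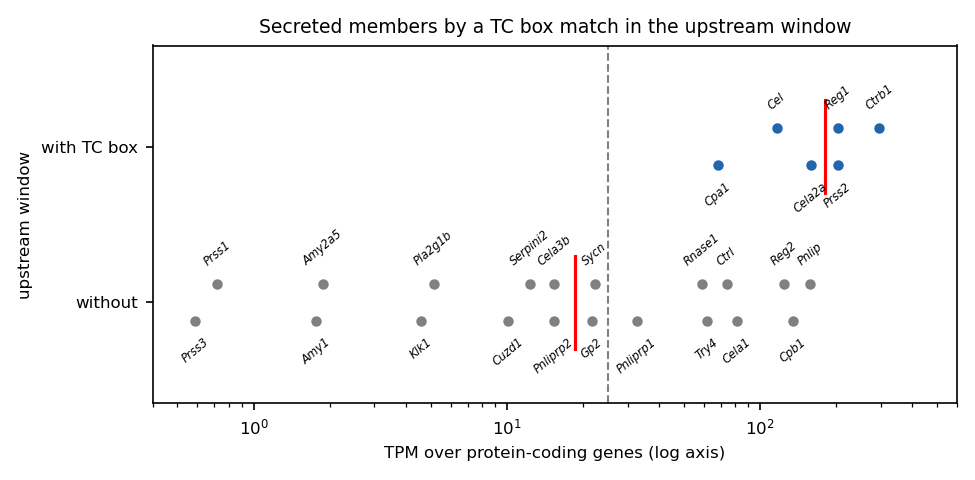
Level in TPM (log axis) of the 26 secreted products with a RefSeq promoter, split by a match to the TC box in the 250 upstream bases, with group medians as red lines and the median of detected genes as the dashed line. The 6 genes with a match lie between 68.2 and 296 TPM, and the 20 without one spread from 0.587 to 158 TPM.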

How the data were processed

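Total RNA of 1 fibroblast culture was extracted with TRIzol and sequenced from a SOLiD library, per the labels' protocols. The authors deposited 1 signal value per row (24214 rows), with a gene symbol and RefSeq accessions, per the file headers. The submitters' processing notes name DESeq and mm10 without a role for either, and no source used here states the aligner, counting tool, read length, strand setting or filters.

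All 20976 values above 0 were whole multiples of 1.18 within 0.01, so the deposited signal was taken as reads divided by a size factor of 0.850, and whole reads were recovered. On simulated libraries this recovered 100% of 24214 rows at each of 3 size factors. Rows differing only by a copy suffix were summed. Exonic lengths are unions of GENCODE M21 exons. TPM used protein-coding genes (with an NM accession). Detection was set at 10 reads and the log2 pseudocount at 0.5. Intervals are exact Poisson, or exact Clopper-Pearson for shares and for ratios of 2 genes (29 computed, no test). Reads are not independent molecules, so intervals and floors (3 reads) cover counting error only.

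Named genes were all 39 members, with full values for the 3 highest per length in each role and those under 10 reads, list genes above the median of detected genes, and adjacent genes of the same family. Fibroblast, mesothelial and secretory pathway genes above that median, which are many, are given mostly by counts and medians, a departure from that rule. Any other gene was picked with its values already seen. The members and lists were chosen with earlier results of these data known. Computation used scipy 1.17.1, numpy 2.4.6 and pandas 2.3.3 under Python 3.11.15, with Biopython 1.88 for alignments and matplotlib 3.10.9 for plots. Some items, including part of the genotype, are not reported here.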

Additional observations from a re-analysis of the deposited data

How the results depend on the processing

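No paired analysis was possible because only a single library was analysed here, and no replicate could be left out. The secreted products lay above the transcription factors, and the pooled trypsinogens and amylases below the other secreted products, under every alternative run. No run separated the 2 families. By TPM the 6 trypsinogens alone had a median of 31.7, with no gene near it, and the 2 amylases 1.82, against 37.5 for the 25 others. In CPM these medians were 5.02, 1.33 and 11.6. The second difference therefore stands for the pooled group and for neither family. On the log2 scale the first difference was 5.23 after division by length, 4.89 by the length of the listed transcripts (an alternative chosen after seeing the data, as was leaving out Gatm) and 1.33 with a pseudocount of 5. The second was -4.03, -4.04 and -1.39 in the same order, and -1.43 over detected genes alone. The median level of the members, 2.72, was 4.51 by length, 4.32 by transcript length, 3.47 with a pseudocount of 5, 3.11 over detected members alone, and 3.04 without trypsinogens and amylases. The number of members above the median of detected genes went from 12 to 19 by length. Relative to fibroblast marker reads, the members came to 14.2% by length, 2.81% without trypsinogens and amylases, and 2.67% without Gatm, which is also the member with the most reads. Detection stood at 39 members at 1 read and 30 at 50 reads. Division by length was not run for detection, which counts reads. The cause of these shifts was not tested. Depth limits the genes under 10 reads, whose intervals span several fold.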

Other observations

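The deposited rows are sorted neither by gene name nor by value, and no source used here states the basis of their order. Of the 39 acinar genes, 20 have their first row between row 5857 and row 7223 of 24214, within a window of 1500 rows that makes up 6.19% of the table (51.3% of the members). Serpini2 and Cel are neighbouring rows, as are Ctrl and Clps. The window was chosen after the positions were seen, and no test was made.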
